A study of Homo sapiens with 21 samples.

Results

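The 84 cytosolic ribosomal protein genes were taken from the 19626 protein-coding genes on chromosomes 1 to 22 and X of the GENCODE 44 annotation of hg38. A gene belonged to the set by its name alone: RPL or RPS and a number with an optional A, X, L or L-number suffix, or RPSA, RPLP0, RPLP1 or RPLP2, without the S6 kinases. By role these were 43 large-subunit proteins, 31 small-subunit proteins, 3 proteins of the stalk and 7 variant paralogues whose names end in L or in L and a number. For these genes the positions of estrogen receptor beta (ER-beta) on chromatin were read from 3 deposited lists of enriched regions. A region was assigned to a gene when its summit, the deposited point of highest enrichment, lay within 5 kb of a start of a protein-coding transcript (TSS).

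The cells were MDA-MB-231, established from a triple-negative breast cancer, which lacks ER-alpha, the progesterone receptor and amplified HER2. They carried Flag-tagged ER-beta under a doxycycline-inducible promoter, and the antibody was against Flag, so the lists speak of the introduced receptor and not of a native one. All groups received doxycycline at 100 ng/ml for 24 h, the ethanol controls included, so no group lacked the receptor. For the last 3 h the cells were given ethanol (the vehicle), 1 nM estradiol or LY500307, a synthetic agonist selective for ER-beta. For LY500307 the sample titles give 1 nM and the sample characteristics 10 nM, so the estradiol and LY500307 lists may differ in dose as well as in ligand. Each treatment had 4 ChIP and 3 input libraries, 21 in all, while the protocol speaks of triplicates. The labels name neither a clone nor separate cultures, and with regions alone the cell type could not be checked against marker genes.

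Ribosomal proteins form, with ribosomal RNA, the small subunit that reads messenger RNA and the large subunit that joins amino acids. Their genes are among the most strongly transcribed in a growing cell, from compact promoters that lie in open chromatin, and their mRNAs share a pyrimidine tract at the start through which mTOR controls translation. Nuclear estrogen receptors bind DNA directly at the estrogen response element (ERE), a palindrome of GGTCA and TGACC with 3 bases of any kind between them, and also reach chromatin through other factors such as those at SP1 and AP-1 motifs.

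Of the 10 estradiol regions with the highest fold near these genes, 8 held an element within 2 mismatches of the ERE and are shown first. The share among equally strong regions of all genes was not computed. Such an element was in 21.2% of members' estradiol regions within 5 kb, beside 30.7% over all genes. Among the regions of all genes farther than 1 kb out it was in 51.7%. In each line the capitals are bases equal to the ERE's 10 fixed positions, read on the plus strand of hg38, and every line is the best match within 100 bp of the summit. RPL18 held a complete ERE and RPS28 one with 1 mismatch, and the 6 others had 2 mismatches.
RPL18: tctctgctGGTCAggtTGACCtcctgaca
RPS28: cttagctaGGTCtctgTGACCttaggtta
RPL23A: caactcggGGcCAcgggGACCctacggga
RPS29: cactacacaGTCAgcgTcACCgtgggggg
RPL3: gccagtaaGGaCAcagTGcCCtctgctgg
RPL27A: cgttcatcaGTCAgcacGACCcgacctca
RPL13: ttcagtcgGGTaccccTGACCttagagaa
RPL26L1: catacccaGGTCtgccTGACtctgggatt
The RPL18 line spans chr19:48613677-48613705, with its element centred 12 bp from the summit, and the RPS28 line spans chr19:8324025-8324053, with its element centred 19 bp from the summit. In the lines of RPL23A, RPS29 and RPL26L1 the element was centred 1 bp from the summit, in that of RPL13 4 bp and in that of RPL27A 8 bp. The RPL3 element was the farthest, at 84 bp.

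The other regions among those 10, upstream of RPL7L1 and of RPL26, had no such element, and 9 regions with lower folds had one with 2 mismatches. The RPL7L1 region had the highest fold of all, and its window held 2 copies of the ERE half-site AGGTCA, both on the minus strand. They are shown, in the absence of an ERE there, in 80 bases of chr6:42877823-42877902 (hg38, plus strand) with both copies in capitals as TGACCT.
RPL7L1 upstream site: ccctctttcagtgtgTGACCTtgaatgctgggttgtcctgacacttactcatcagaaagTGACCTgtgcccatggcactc

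Regions near ribosomal protein genes were common after estradiol and weak at the start sites. The estradiol list had a region within 5 kb of 56 of the 84 genes (66.7%), beside 40.8% of all protein-coding genes. The LY500307 list had one near 32 genes (38.1%), beside 17.4% of all genes. The ethanol list had one near 9 genes (10.7%), beside 7.35%. The lists hold 26861, 10045 and 2905 regions in the same order. The counts fell in that order for members and for all genes, and the part of list length in this was not tested. Members had a median of 5 annotated coding starts and all genes a median of 3, which gives a member more places to be counted. With 1 start per gene, that of the canonical transcript, the shares were 63.1% against 37.2% for estradiol, 35.7% against 14.8% for LY500307 and 9.52% against 6.35% for ethanol.

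A promoter region had its summit from 1000 bp upstream to 100 bp downstream of a TSS. By this rule 28 members (33.3%) had an estradiol region in the promoter, beside 20.6% of all genes. For LY500307 it was 13 members (15.5%), beside 7.20%, and for ethanol 4 members (4.76%), beside 2.93%. These promoter counts rested on the choice of start site. With the canonical start alone they were 14 (16.7%, beside 12.7% of all genes), 4 (4.76%, beside 3.88%) and 0 (beside 1.33%). Many summits counted as promoter thus lay at a secondary start, or just downstream of the canonical one. No difference between members and other genes was tested, because the set was drawn up with earlier results of these data known and genes are not replicates.

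**Figure D1:**
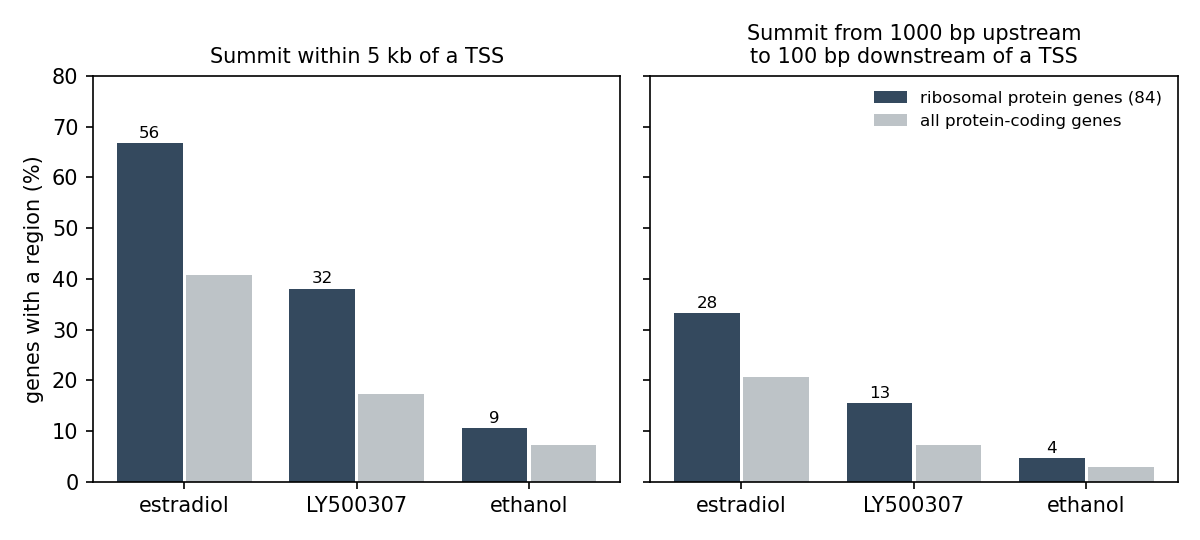
Percent of genes (vertical axis) with a region in the estradiol, LY500307 and ethanol lists, counted up to 5 kb from a TSS (left) or in the promoter alone (right). Dark bars are the 84 ribosomal protein genes with their number written above, grey bars all protein-coding genes; the dark bar is the higher one in all 6 pairs.

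When each list was reduced to its strongest 2905 regions, as many as the ethanol list holds, the members' share was close to that of all genes after estradiol and below it after LY500307. The estradiol list then had a region within 5 kb of 4 members (4.76%, beside 4.25% of all genes), namely RPL7L1, RPL18, RPL23A and RPS28. The LY500307 list then had 2 members (2.38%, beside 4.27%), RPL27A and RPL7L1, and neither list had any member promoter. In the full ligand lists most members were thus counted through regions outside the strongest 2905.

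By role, estradiol regions lay within 5 kb of 30 of the 43 large-subunit genes, 17 of the 31 small-subunit genes, all 3 stalk genes and 6 of the 7 variant paralogues. The LY500307 counts were 21, 6, 2 and 3, and the ethanol counts 7, 2, 0 and 0. In the promoter the estradiol counts were 14 large-subunit, 10 small-subunit, 2 stalk and 2 variant genes. For LY500307 the promoter counts were 8, 2, 2 and 1, and all 4 ethanol promoters belonged to large-subunit genes. Across the lists, 25 genes had a region in the estradiol list only (29.8%, beside 22.7% of all genes), 22 in the estradiol and LY500307 lists (26.2%, beside 11.2%), and 8 in all 3 lists (9.52%, beside 5.38%). RPL35 and RPL37 had a region in the LY500307 list alone (2.38%, beside 0.683%), and RPL36 in the estradiol and ethanol lists (1.19%, beside 1.58%). The remaining 26 genes had none in any list (31.0%, beside 58.1%). They included RPL11, which binds MDM2 and so links ribosome assembly to p53, RPS3, which also acts in DNA repair, and RPL10L, a testis form of RPL10. A gene absent from a list is not shown to be unbound, since the lists end at the authors' threshold.

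The lists held 80 estradiol, 39 LY500307 and 10 ethanol regions near these genes. One estradiol region was shared by 2 members, RPL3L and RPS2. Strength differed with distance. Fold is the authors' enrichment of the ChIP pool over local background at the summit, and is compared here only among regions of one list. The 58 estradiol regions within 1 kb (the promoter and the rest of the first 1000 bp downstream) had a median fold of 5.97, from 4.31 to 25.1. The 22 regions farther out had a median of 11.4, from 4.60 to 52.4. Of the 10 regions with a fold of 20 or more before rounding, 9 lay beyond 1 kb (90.0%, beside 51.0% over all genes), and of the 63 with a fold under 10, 54 lay within it. For the folds under 10 the share over all genes was not computed. At any fold, 72.5% of members' regions and 71.0% of those of all genes lay within 1 kb. Members' distances are to starts of members, and those of all genes to the nearest start of any protein-coding gene. For 9 of the 22 member regions beyond 1 kb another gene's start was nearer, as for the RPL23A site, 315 bp from that of RAB34. Each comparison with all genes within or beyond 1 kb is therefore between unlike classes. These distance classes were set after the values had been seen.

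The same division held over all protein-coding genes, where the median estradiol fold was 6.70 within 1 kb and 11.3 beyond. Members' regions within 1 kb were somewhat weaker than those of other genes. Their median percentile by q in the whole estradiol list was 18.3, beside 27.0 for all genes. Beyond 1 kb the percentiles were 56.3 and 57.3. Over all regions within 5 kb the median estradiol fold was 6.25 for members and 7.50 for all genes. Low folds were not particular to members. The median was 6.22 near mitochondrial ribosomal protein genes, 6.25 near translation factor genes and 6.40 near ribosome biogenesis genes. Near controllers of ribosomal protein mRNA translation it was 7.42. Of the 80 regions, 62 lay below the median of the list by q (77.5%, beside 64.7% over all genes) and 45 among its lowest 25% (56.2%, beside 38.9%). In the LY500307 list the 29 member regions within 1 kb had a median fold of 5.84 and the 10 beyond it 11.9, beside 6.48 and 9.87 over all genes. All 10 ethanol regions lay within 1 kb, beside 77.4% over all genes, with folds from 4.31 to 7.02.

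**Figure D2:**
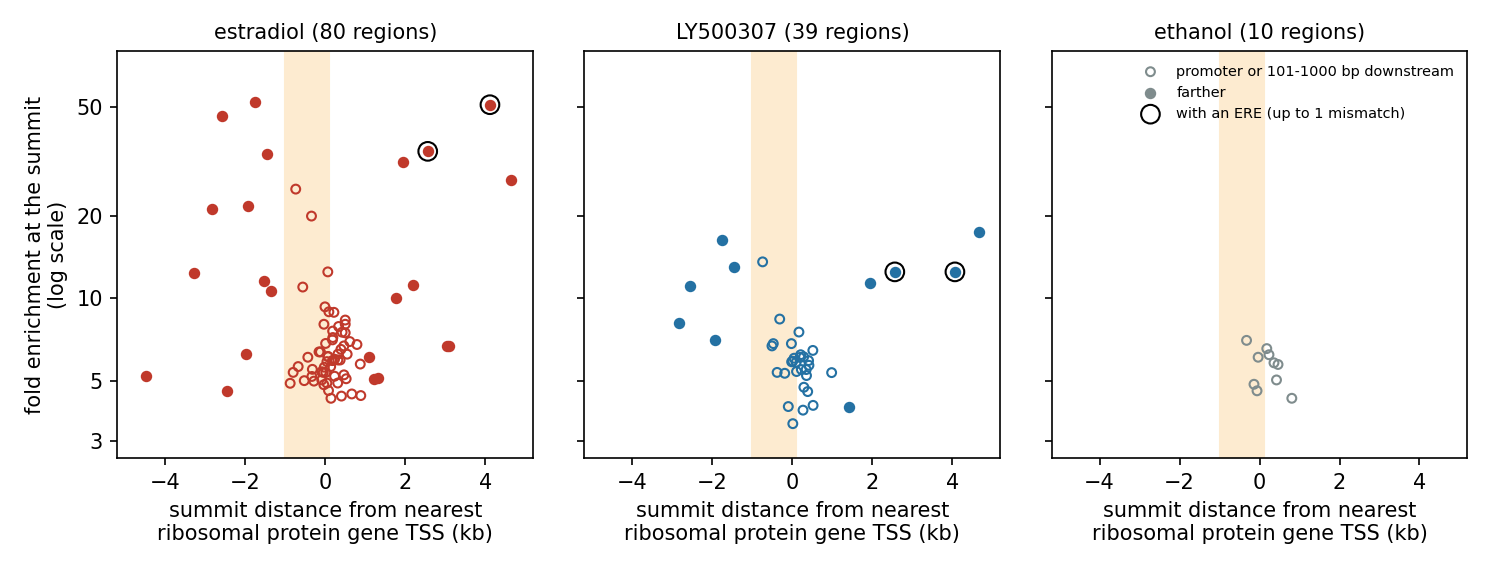
Fold enrichment (log scale) against the signed distance in kb of each summit from the nearest ribosomal protein gene TSS, 1 panel per list. Open points are regions in the promoter or in the first 1000 bp downstream, filled points regions farther out, ringed points those with an ERE of up to 1 mismatch, and the shaded band is the promoter; 9 of the 10 estradiol regions with a fold of 20 or more before rounding are filled points outside the band.

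In the position classes the members' shares were close to those of all genes after estradiol, though the classes were not measured alike. Members' classes used starts of members alone, and those of all genes the nearest start of any gene. The members' shares by the rule used for all genes were not computed. The promoter took 40.0% of members' regions and 41.2% of the regions of all genes, the rest of the first 1000 bp downstream 32.5% and 29.8%, the stretch farther upstream up to 5 kb 13.8% and 12.8%, and the stretch farther downstream 13.8% and 16.2%. In the LY500307 list 41.0% of members' regions and 29.1% of all lay past the promoter in the first 1000 bp downstream, and in the ethanol list 60.0% and 37.2%. The ethanol share rests on 6 of 10 regions. Measured from the canonical start, 39 of the 52 estradiol summits within 1 kb were downstream (75.0%), beside 75.4% over all genes, with a median of 206 bp downstream. For LY500307 22 of 26 were downstream (84.6%, beside 75.4%), and for ethanol all 9 were, beside 84.1% over all genes. The lean of summits to the downstream side of the canonical start was thus shared with other genes after estradiol. By annotation 32 of the 80 estradiol summits fell in introns, 24 in untranslated exons, 14 between genes and 10 in coding exons. The matching annotation shares over all genes were not computed.

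**Figure D3:**
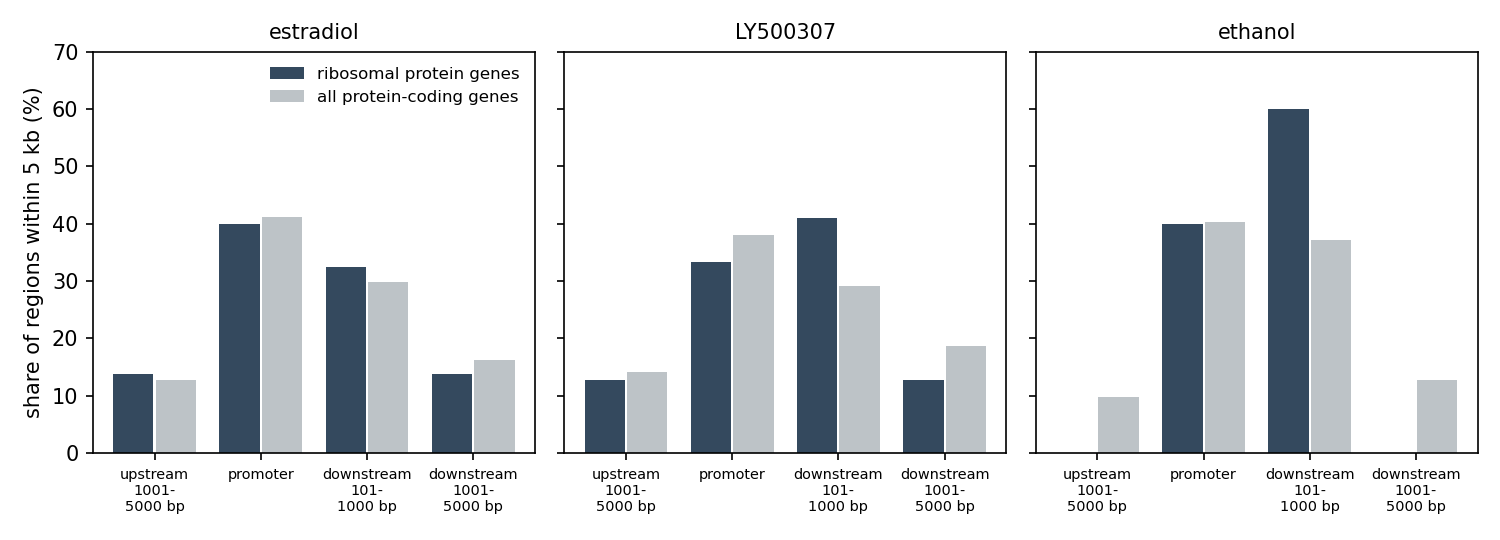
Percent of regions within 5 kb (vertical axis) that fall in each of 4 position classes relative to a TSS, for ribosomal protein genes (dark) and all protein-coding genes (grey), 1 panel per list. The estradiol bars differ little, with members placed by their own starts and all genes by the nearest start of any gene. No ethanol region of a ribosomal protein gene lies more than 1000 bp from a member TSS, beside 22.6% over all genes.

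Among large-subunit genes, RPL18 had an estradiol region at chr19:48613476-48614092 (hg38) with a fold of 51.1 and a −log10 q of 166. It lay 4118 bp downstream of an RPL18 start and 5499 bp from the canonical one, in an untranslated exon of FAM83E, whose own start was 1136 bp away. LY500307 gave a fold of 12.5 there, with a −log10 q of 33.4, and ethanol no region. The RPL23A region at chr17:28717022-28718186 had a fold of 46.3 and a −log10 q of 146 after estradiol. After LY500307 the fold was 11.1 and the −log10 q 24.5, and ethanol gave no region. It lay 2592 bp upstream of RPL23A, in a coding exon of RAB34, 315 bp past the start of that gene. At the RPL23A start itself there was a weak estradiol region, with a fold of 5.36, and none in the other lists. RPL23A encodes a protein near the exit of the ribosomal tunnel.

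RPL3 encodes a protein close to the peptidyl transferase centre. Its region at chr22:39316482-39316881, in an RPL3 intron 1944 bp past a start, had a fold of 31.5 and a −log10 q of 84.2 after estradiol, and a fold of 11.4 and a −log10 q of 23.1 after LY500307. The RPL27A region at chr11:8688705-8689121, 4636 bp past a start, had a fold of 27.1 and a −log10 q of 123 after estradiol. After LY500307 the fold was 17.5 with a −log10 q of 43.3, the highest LY500307 fold of any member. RPL13 had the only member promoter region with an estradiol fold above 20. It lay at chr16:89559708-89560166, 739 bp upstream of the start, with a fold of 25.1 and a −log10 q of 111, and a fold of 13.6 and a −log10 q of 30.8 after LY500307. RPL26 encodes a protein that also binds p53 mRNA. Its region at chr17:8384945-8385355, 1930 bp upstream, had folds of 21.7 after estradiol (−log10 q of 66.2) and 7.07 after LY500307 (−log10 q of 9.31). None of these large-subunit regions overlapped an ethanol region.

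Further large-subunit genes with a region in both ligand lists had lower folds. RPL37A had an estradiol fold of 12.5 at chr2:216498760-216499311, 63 bp past a start, with a −log10 q of 22.6. The folds there were 5.86 after LY500307 (−log10 q of 6.31) and 4.59 after ethanol (−log10 q of 3.12). RPL28 had its highest estradiol fold, 11.6, 1539 bp upstream at chr19:55384200-55384577, close to the start of TMEM238, with a −log10 q of 21.7. At the RPL28 start the estradiol fold was 4.31, and the LY500307 region 224 bp downstream, with a fold of 5.49 and a −log10 q of 6.07, overlapped neither. RPL22, 90 bp past its start at chr1:6199138-6199621, had folds of 8.93 after estradiol (−log10 q of 14.1) and 5.49 after LY500307 (5.73). RPL14, 216 bp past its start at chr3:40457405-40457760, had folds of 8.89 (−log10 q of 14.5) and 7.53 (10.5). None of RPL28, RPL22 and RPL14 had an ethanol region. RPL5, which pairs with RPL11 on MDM2, had an estradiol region alone, with a fold of 4.90.

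Among small-subunit genes the RPS28 and RPS29 neighbourhoods held the strong sites. RPS28 had a region at chr19:8323799-8324254, 2562 bp downstream of its start in an intron of KANK3, with a fold of 34.5 and a −log10 q of 149 after estradiol. After LY500307 its fold was 12.5 and its −log10 q 27.0. RPS29 had one at chr14:49599550-49600334, in an intron of LRR1, with folds of 33.6 after estradiol (−log10 q of 106) and 13.0 after LY500307 (30.4). A neighbouring region at chr14:49598844-49599229 had folds of 20.0 (just under 20 before rounding) and 8.40. Both were assigned to RPS29 by a secondary start that faces LRR1, and lay 13761 and 12655 bp from the canonical RPS29 start. At the canonical start the RPS29 region 370 bp downstream had folds of 5.95 and 4.73. None of these overlapped an ethanol region.

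The other small-subunit regions were weaker. RPS6, the substrate of the S6 kinases, had only an estradiol region, 323 bp upstream, with a fold of 5.50. RPS19 and RPS14, whose loss causes failure of red cell production, had estradiol promoter folds of 4.83 and 5.03 and no other region. RPS27A, which is made as a fusion with ubiquitin, had an estradiol promoter fold of 6.13, and RPSA, also known as a laminin receptor, one of 5.60.

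The stalk proteins recruit translation factors to the ribosome. RPLP2 had a region at chr11:809240-809591, 563 bp upstream, with folds of 11.0 after estradiol (−log10 q of 18.5) and 6.70 after LY500307 (8.33). RPLP0 had folds of 8.04 and 6.83 at chr12:120200647-120201055, and RPLP1 an estradiol region alone, with a fold of 6.25. No stalk gene had an ethanol region.

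Among the variant paralogues RPL7L1 had the highest fold of all members. Its region at chr6:42877620-42878076, between genes and 1761 bp upstream, had a fold of 52.4 and a −log10 q of 292 after estradiol. After LY500307 the fold was 16.4 and the −log10 q 70.2, and ethanol gave no region. At the RPL7L1 start only the LY500307 list had a region, with a fold of 4.02. RPL26L1 had folds of 21.3 after estradiol (−log10 q of 51.1) and 8.11 after LY500307 (14.2) at chr5:172955716-172956062, 2840 bp upstream. RPL39L, RPL22L1 and RPS27L had highest estradiol folds of 7.59, 7.05 and 6.84. The region of RPL3L, a form found in muscle, had a fold of 6.25 and lay 28 bp from the start of NDUFB10.

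**Figure D4:**
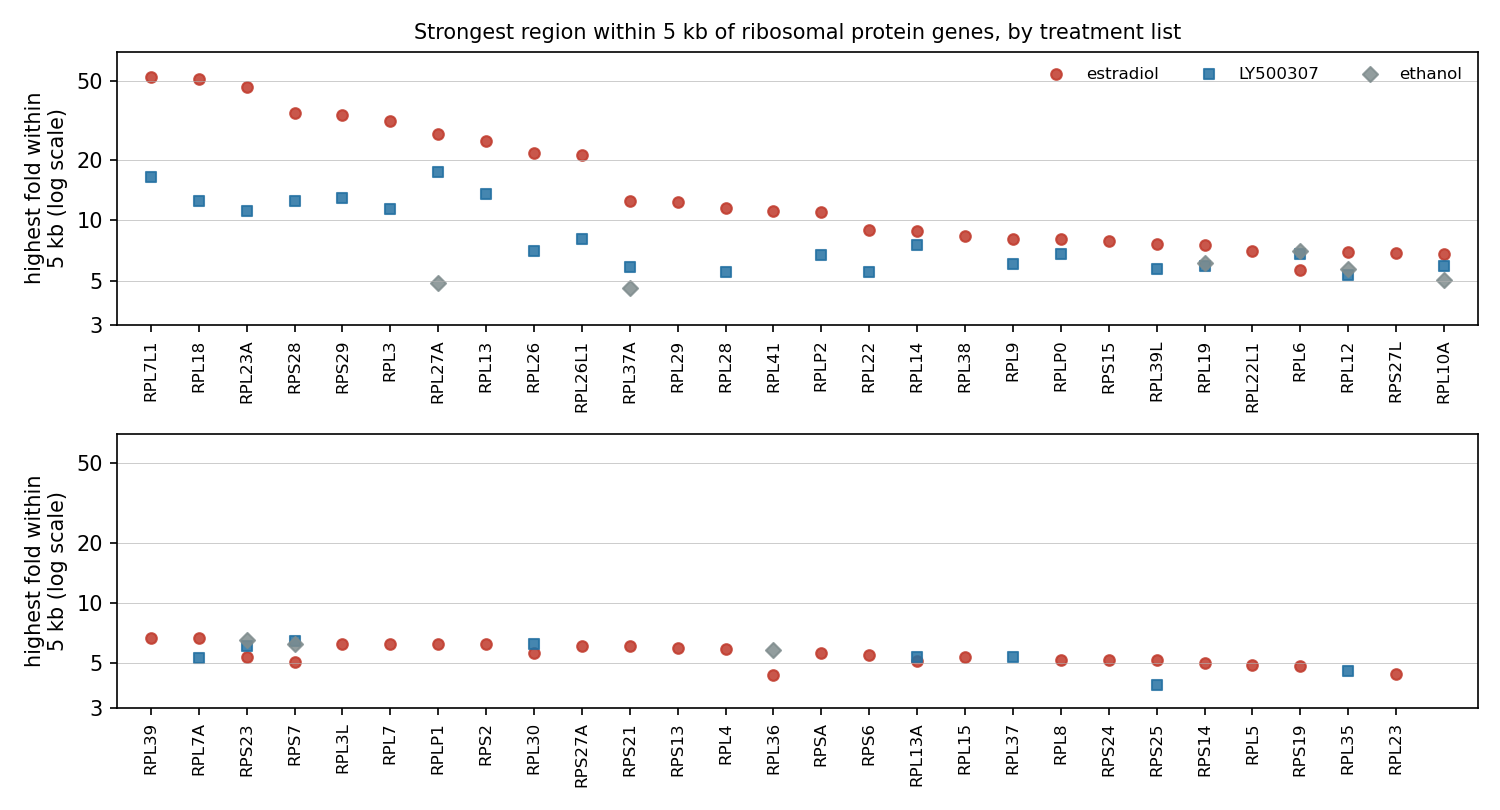
Highest fold (log scale) of any region within 5 kb for 55 of the 58 ribosomal protein genes with a region, ordered by the highest fold in any list. Circles are estradiol, squares LY500307 and diamonds ethanol, and a missing symbol means no region in that list; the 10 genes at the upper left have estradiol folds from 52.4 down to 21.3, and all ethanol symbols lie at or below 7.02.

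Of the 9 genes with an ethanol region, RPL27A also had an estradiol region with a fold of 20 or more. RPS23, a protein of the decoding centre, had an ethanol fold of 6.55 181 bp past its start, 6.11 after LY500307, and 5.36 for its overlapping estradiol region. RPS7 had folds of 6.22 after ethanol, 6.45 after LY500307 and 5.08 after estradiol. RPL12 had 5.73, 5.22 and 6.95, and RPL10A 5.03, 5.92 and 6.78, in the same order. RPL36 had 5.81 after ethanol and 4.39 after estradiol and no LY500307 region. RPL19 had 6.09 after ethanol and 5.89 after LY500307 at its start, while its estradiol region, with a fold of 7.52, began just beyond and overlapped neither. RPL27A had folds of 4.85, 3.48 and 9.31 after ethanol, LY500307 and estradiol at its start. The RPL6 region, with folds of 7.02, 6.83 and 5.63, lay at the start of PTPN11 and 9558 bp upstream of the canonical RPL6 start in the ethanol list. Across these genes the folds sat between 3.48 and 12.5 at the sites shared by the lists, and because the pools were scaled separately they show no order of treatments.

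Most of the ethanol regions, all within 1 kb of a member's coding start, overlapped regions of the ligand lists. Of the 10 ethanol regions, 9 overlapped an estradiol region (90.0%, beside 89.6% over all genes) and 9 a LY500307 region (90.0%, beside 69.2%). Of the 80 estradiol regions, 8 overlapped an ethanol region (10.0%, beside 11.4%), all within 1 kb of a start. None of the 22 beyond 1 kb did, beside 9.14% over all genes. Of the 39 LY500307 regions, 9 overlapped an ethanol region (23.1%, beside 25.7%). These were 8 of the 29 within 1 kb (27.6%, beside 26.9%) and 1 of the 10 beyond it (10.0%, beside 23.3%), 1410 bp past the RPL10A start. Between the ligand lists, 30 of 39 LY500307 regions overlapped an estradiol region (76.9%, beside 92.1% over all genes), and 31 of the 80 estradiol regions a LY500307 region (38.8%, beside 31.2%). The shortfall lay within 1 kb, where 21 of 29 did (72.4%, beside 90.5%), and beyond 1 kb 9 of 10 did (90.0%, beside 95.3%). The 9 LY500307 regions that overlapped no estradiol region had folds of 3.90 to 5.89 and included those near RPL7A, RPL10A, RPL19, RPL28, RPL35, RPL37 and RPS25. Whether regions this close to the threshold recur between cultures was not tested.

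The ERE letters were at the distant sites. With up to 1 mismatch, 2 of the 80 estradiol regions held an ERE, those of RPL18 and RPS28 printed above, and both lay beyond 1 kb. That is 2 of 22 (9.09%, exact Clopper-Pearson 95% interval 1.12 to 29.2%), beside 16.5% over all genes. Within 1 kb it was 0 of 58, which by the limit of 3 counts of the total allows a share of up to 5.17% (exact upper bound 6.16%), beside 3.98% over all genes, so a shortage could not be detected with this many regions. The LY500307 list held the same 2 elements, 2 of 10 beyond 1 kb (20.0%, beside 18.9% over all genes) and 0 of 29 within it (beside 6.60%). No ethanol region held one, 0 of 10, which by the same limit allows up to 30.0%, beside 6.26% over all genes within 1 kb. With up to 2 mismatches the estradiol counts were 12 of 22 beyond 1 kb (54.5%, beside 51.7%) and 5 of 58 within it (8.62%, beside 22.1%). The half-site AGGTCA, sought on both strands and counted also inside an ERE, was in 13 of 22 regions beyond 1 kb (59.1%, beside 53.3%) and in 6 of 58 within it (10.3%, beside 19.5%). Intervals cover counting error only, and the distance classes of members and of all genes differ as stated above.

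Base composition moved with these counts. The median GC content of the windows reaching 100 bp to either side of the summit was 62.2% within 1 kb and 55.0% beyond for members, and 68.7% and 54.5% for all genes. Its part in the motif counts was not tested. The SP1 motif GGGGCGGGG, sought on both strands, was in 3 of the 10 ethanol windows (30.0%, exact interval 6.67 to 65.2%), beside 8.68% over all genes, and in 2 of 80 estradiol windows (2.50%), beside 7.27%. All 10 ethanol windows lay within 1 kb, where the SP1 share over all genes was 10.5%. The ETS motif CCGGAAG was in 1 of them (10.0%, beside 5.32% within 1 kb) and the half-site in 0 (beside 16.8%). The AP-1, YY1 and TATAAA motifs were in 0 as well (beside 3.73%, 0.934% and 0.934%). The 3 ethanol windows that held the SP1 motif are shown for that reason, with the motif in capitals on the plus strand of hg38. Its centre lay 52 bp from the summit for RPL19, 92 bp for RPL27A and 16 bp for RPL37A.
RPL19, chr17:39200510-39200538: ggagtgagggGGGGCGGGGagcgtcgcag
RPL27A, chr11:8682956-8682984: gcgcgggcccGGGGCGGGGctcccggagc
RPL37A, chr2:216499025-216499053: ccaaggcggaGGGGCGGGGgcgccttggc

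Promoter sequence from RefSeq (GRCh38.p14, 250 bases before to 50 after the start) was matched for 67 of the 84 members and for 15277 genes in all. The ETS motif CCGGAAG was in 24 members (35.8%, beside 16.7% of all genes), the SP1 motif in 7 (10.4%, beside 26.8%) and TATAAA in 7 (10.4%, beside 12.5%). The half-site was in 11 (16.4%, beside 15.1%), the AP-1 motif TGACTCA in 1 (1.49%, beside 5.33%), the YY1 motif in 3 (4.48%, beside 2.27%) and an ERE of up to 1 mismatch in none (beside 0.805%). All were sought on both strands. RPL27A had a promoter region in all 3 lists by a secondary start. In the 120 bases before its RefSeq start, chr11:8682672-8682791, it held an ETS and an SP1 motif. Only the estradiol region overlapped these bases, and the ethanol and LY500307 regions began downstream of that start. The capitals mark the ETS motif and, on the opposite strand, the SP1 motif.
RPL27A promoter: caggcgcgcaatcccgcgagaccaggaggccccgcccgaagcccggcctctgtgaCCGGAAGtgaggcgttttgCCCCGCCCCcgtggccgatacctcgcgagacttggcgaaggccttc
A match is a description of letters and not a bound site.

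The 31 members with a promoter region in any list included, besides those described, RPL4, RPL7, RPL7A, RPL9, RPL13A, RPL15, RPL37, RPS21 and RPS25. The highest promoter folds of these genes in the estradiol list ran from 4.60 (RPL13A) to 8.04 (RPL9), and RPL37 had a promoter region only after LY500307, with a fold of 5.36. For 16 of the 80 estradiol regions the nearest coding start belonged to a gene outside the set, as for RPL7 (RDH10), RPS25 (TRAPPC4) and RPL7A (MED22). The matching share over all genes was not computed. With each region given only to its nearest start, the counts were 49 members for estradiol (58.3%, beside 36.0%), 29 for LY500307 (34.5%, beside 15.1%) and 8 for ethanol (9.52%, beside 6.39%).

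At the edge of the rule, the members just inside 5 kb were RPS24, with an estradiol fold of 5.18 at chr10:78029198-78029415, 4474 bp upstream (−log10 q of 6.99), and the RPL27A site at 4636 bp after estradiol and 4654 bp after LY500307. Just outside was an RPL23A site at chr17:28725862-28726249, 5346 bp downstream, with folds of 36.8 after estradiol (−log10 q of 112) and 22.9 after LY500307 (61.6).

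Other genes of protein synthesis stood beside the members' shares of 66.7% for estradiol, 38.1% for LY500307 and 10.7% for ethanol as follows. Estradiol regions lay within 5 kb of 46 of 78 mitochondrial ribosomal protein genes (59.0%), 25 of 33 translation factor genes (75.8%), 19 of 32 ribosome biogenesis genes (59.4%) and 8 of 12 controllers of ribosomal protein mRNA translation such as MTOR and LARP1 (66.7%). For LY500307 the counts were 18 (23.1%), 10 (30.3%), 8 (25.0%) and 2 (16.7%), and for ethanol 5 (6.41%), 6 (18.2%), 6 (18.8%) and 2 (16.7%). In the promoter the estradiol shares were 33.3%, 42.4%, 25.0% and 58.3% in the same order, beside 33.3% for members. For LY500307 they were 10.3%, 21.2%, 9.38% and 16.7%, beside 15.5%. For ethanol they were 2.56%, 12.1%, 6.25% and 16.7%, beside 4.76%. No difference between these groups was tested. Of 4 ribosomal protein genes outside the naming rule, RACK1 had regions in all 3 lists, with promoter folds of 6.70 after estradiol, 6.48 after LY500307 and 6.55 after ethanol. RPL36AL had a highest estradiol fold of 7.66, and FAU had regions in both ligand lists more than 4 kb from its start. Of 1579 pseudogenes of the members, 10 were overlapped by an estradiol region (0.633%, beside 0.970% of all processed pseudogenes), 4 by a LY500307 region and 2 by an ethanol region. How the authors' alignment placed reads shared by near-identical copies is not given in the sources used here.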

How the data were processed

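The authors deposited 1 narrowPeak list for each treatment. Because every ChIP library of a treatment is labelled with that list, it was read as a pool, and how many libraries it holds is not stated. Per the submitters' processing notes the build was hg38 and the tools included MACS2 (2.1.1.20160309), Bowtie2 (2.2.6) and DiffBind, with no roles. The fold is the authors' deposited ratio over background at the summit. The −log10 q is the authors' deposited value, and the deposited score and −log10 p were not used. Read depth is unknown, and without replicate lists no value has an error across cultures and no test between treatments was made.

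Regions on chromosomes 1 to 22 and X were kept. TSSs were the starts of protein-coding transcripts in GENCODE 44. A summit in the promoter of any start counted as promoter even where another start was closer, and distances are to the nearest start of the member. For the regions of all genes the nearest start of any protein-coding gene was used. Motifs were sought up to 100 bp on either side of a summit, and regions of different lists overlapped when they shared 1 bp. The members, lists and comparisons were chosen with earlier results of these data known. The distance classes and the nearest-start count were added after seeing values. Members with a promoter region were named, and some genes are not reported by name here. Full values were given for the 10 with the highest estradiol fold, for those with a LY500307 or ethanol region (up to 15), for regions with an ERE and for the 3 regions on either side of 5 kb, and further members were named for their known roles. Alternatives varied the region threshold, start set, distances, mismatches and overlap. Counting was tested on simulated data. Python 3.11.15, numpy 2.4.6, pandas 2.3.3, scipy 1.17.1, pysam 0.24.0 and matplotlib 3.10.9 were used.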

Additional observations from a re-analysis of the deposited data

How the results depend on the processing

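Of 119 alternative values, 89 stayed close to the ones reported. With the strongest 2905 regions of each list, estradiol had a region within 5 kb of 4 genes (4 regions) and LY500307 of 2 (2 regions), with 0 promoters in both. With canonical starts the promoter counts were 14 for estradiol, 4 for LY500307 and 0 for ethanol. A promoter of 2500 bp on both sides gave 52, 28 and 9 genes, and median nearby folds of 21.3 for estradiol and 12.5 for LY500307. For ethanol it left no nearby region and so gave no value. A promoter of 500 bp on both sides gave 23 genes for LY500307 and 9 for ethanol, and a nearby LY500307 fold of 11.1. The ethanol promoter count was 2 at a −log10 q of 5 or more and 2 at a fold of 5 or more, and 14 genes had an ethanol region within 20 kb. An ERE with 0 mismatches was in 1 estradiol and 1 LY500307 region. With 2 mismatches it was in 17, 10 and 2 regions of the estradiol, LY500307 and ethanol lists, and over whole regions in 4 estradiol ones. With overlap of 50% of each region, 2 estradiol and 3 LY500307 regions overlapped ethanol ones, and ethanol regions overlapped 2 estradiol and 3 LY500307 ones. The members' share within 5 kb was above that of all genes in 10 of 10 settings for estradiol and ethanol and in 9 of 10 for LY500307, and the promoter share in 8 of 9 for each list.

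No paired analysis was possible because each treatment has 1 pooled list with no replicate lists. Leaving out a library was not possible for the same reason. The number of pooled libraries, their depth and the LY500307 dose are not known.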
